A study of Mus musculus with 8 samples.

Results

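The mRNA levels of 10 genes for transcription factors of the corneal epithelium, Pax6, Klf4, Klf5, Klf6, Ehf, Elf3, Trp63, Foxc1, Tfap2a and Grhl3, were followed across all 8 corneal RNA-seq samples of the series. The genes were chosen by their symbols, and all 10 were found among the 23597 genes of the deposited table. The ICI group held 4 samples from mice with dry eye that were given ICI 118551, which blocks the β2-adrenergic receptor. The Scop group held 4 samples from mice with dry eye that did not receive it. Both groups had been injected with scopolamine, a muscarinic antagonist that lowers tear secretion, and were taken at day 14 of the injections. Each sample was a pool of 4 corneas. The sources used here give neither strain, age and sex of the mice nor the dose and route of ICI 118551. Corneas without dry eye were not analysed here, so no value here is set against a healthy eye. Which animals went into which pool is not stated, so a p-value here reflects the spread between the 8 pools, which may be partly technical.

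The corneal epithelium is a stratified, non-keratinised layer that renews itself from basal and limbal cells, and its identity rests on a set of transcription factors that act together on shared target genes. Pax6, a paired-box and homeobox factor, is the central regulator of eye development, and the adult corneal epithelium of mice depends on its dose. Krüppel-like factors bind GC-rich and CACCC elements through zinc fingers, ETS factors bind sites with a GGAA core, and p63, grainyhead-like and AP-2 factors act in stratified epithelia in general.

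Promoter sequences of RefSeq (GRCm38.p6, the same assembly as mm10) were matched by symbol for 7 of the 10 genes, from 250 bases before to 50 bases after a start site. Examples are shown, chosen after the values were seen. Klf4, Klf6 and Grhl3 are 3 of the 4 matched genes whose level was highest in the same library, Scop replicate 3, the other being Tfap2a. Pax6 and Elf3 are 2 of the 3 whose level was not, the other being Foxc1. Each is written 5′ to 3′ on the strand of the gene. Capitals mark GGGCGG, the GC box of Sp and Krüppel-like factors, and CACCC, an element bound by Krüppel-like factors, each on either strand, and neighbouring matches may share a base.
Klf4, chr4:55532426-55532725, minus strand: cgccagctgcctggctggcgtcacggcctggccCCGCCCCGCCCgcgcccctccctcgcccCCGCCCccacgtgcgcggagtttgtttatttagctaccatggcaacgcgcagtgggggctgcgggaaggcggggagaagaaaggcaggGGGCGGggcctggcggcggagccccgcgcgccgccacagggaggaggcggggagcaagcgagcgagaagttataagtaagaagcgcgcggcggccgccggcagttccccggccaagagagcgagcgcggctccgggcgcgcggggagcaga
Klf6, chr13:5861239-5861538, plus strand: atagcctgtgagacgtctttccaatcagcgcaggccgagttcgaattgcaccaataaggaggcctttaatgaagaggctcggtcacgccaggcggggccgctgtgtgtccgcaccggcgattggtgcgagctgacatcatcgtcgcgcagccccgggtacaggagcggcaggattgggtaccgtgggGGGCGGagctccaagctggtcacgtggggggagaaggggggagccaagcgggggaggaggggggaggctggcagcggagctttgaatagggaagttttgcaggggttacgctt
Grhl3, chr4:135573583-135573882, minus strand: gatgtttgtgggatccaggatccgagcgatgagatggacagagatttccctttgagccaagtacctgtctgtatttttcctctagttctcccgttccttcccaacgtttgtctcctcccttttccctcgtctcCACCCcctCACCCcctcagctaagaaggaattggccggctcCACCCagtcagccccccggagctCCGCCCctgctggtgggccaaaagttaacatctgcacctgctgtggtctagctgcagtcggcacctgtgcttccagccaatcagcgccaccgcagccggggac
Pax6, upstream start, chr2:105668646-105668945, plus strand: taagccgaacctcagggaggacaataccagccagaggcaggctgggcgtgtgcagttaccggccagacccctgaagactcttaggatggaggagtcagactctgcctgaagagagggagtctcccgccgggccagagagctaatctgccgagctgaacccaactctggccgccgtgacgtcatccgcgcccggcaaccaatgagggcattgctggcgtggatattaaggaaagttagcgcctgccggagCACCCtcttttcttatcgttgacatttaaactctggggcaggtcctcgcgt
Elf3, chr1:135258423-135258722, minus strand: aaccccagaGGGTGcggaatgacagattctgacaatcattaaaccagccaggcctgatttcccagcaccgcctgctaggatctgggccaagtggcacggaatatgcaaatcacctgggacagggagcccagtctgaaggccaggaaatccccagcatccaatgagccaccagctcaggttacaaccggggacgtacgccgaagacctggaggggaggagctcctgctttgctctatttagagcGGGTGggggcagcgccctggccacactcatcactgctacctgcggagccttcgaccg

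Klf4 had 4 GC boxes in this window and no CACCC element, at a GC content of 74.3%. Klf6 had 1 GC box and no CACCC element, and Grhl3 had 1 GC box and 3 CACCC elements. The upstream promoter of Pax6 held 1 CACCC element and no GC box, and that of Elf3 held 2 CACCC elements and no GC box. Among the matched genes not shown, Foxc1, whose level was not highest in Scop replicate 3, held 1 GC box and 1 CACCC element. Each promoter of Tfap2a also held 1 GC box and 1 CACCC element. A relation between these elements and the library with the highest level was not tested. Over the 9 promoters of the 7 genes (Pax6 and Tfap2a had 2 each), 6 held the GC box and 6 the CACCC element. Among all 32851 promoters of this length, 35.7% held the GC box and 57.5% the CACCC element. The ETS core, GGAA on either strand, was found in all 9, against 96.0% of all promoters. The AP-2 motif GCCNNNGGC was found in 3 of 9, against 16.6% of all promoters. The grainyhead-like motif AACCGGTT was in none of the 9, against 0.146% of all promoters. The forkhead motif GTAAACA was in none either, against 3.65%, nor was a piece of the Pax6 paired-domain site, TTCACGC, against 1.26%. These matches describe the letters of the windows, and binding was not measured.

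The libraries held between 34354346 and 39885822 fragments, recovered from the steps of the deposited FPKM values (fragments per kilobase of gene, scaled to the depth of the library). The tissue label was checked against markers. The summed FPKM of 8 corneal epithelial markers lay at 34600 to 36800 in ICI and 34600 to 39400 in Scop, and the keratin gene Krt12, which marks corneal epithelium, averaged 15850 ± 458 FPKM in ICI and 16260 ± 1467 FPKM in Scop (SD, n = 4 each). The 10 markers of keratocytes and stroma summed to 1700 to 2290 FPKM in ICI and 674 to 2010 FPKM in Scop, and the lowest sum was that of Scop replicate 3. Of these, Kera averaged 205 ± 35.2 FPKM in ICI and 139 ± 67.0 FPKM in Scop, and Lum 310 ± 42.0 FPKM in ICI and 238 ± 103 FPKM in Scop. Fbln1, on the same list, went the other way, at 11.3 ± 0.202 FPKM in ICI and 12.9 ± 1.26 FPKM in Scop. It was highest in Scop replicate 3, at 14.4 FPKM. Scop replicate 3 also had the highest epithelial sum, 39400 FPKM, and the highest sum of 4 conjunctival markers (1860 FPKM, with the ICI libraries at 1200 to 1260 FPKM). Its sum of corneal endothelial markers was the lowest, 49.3 FPKM. The highest endothelial sum, 179 FPKM, was that of ICI replicate 1. Of these markers, Slc4a11 stood at 41.4 FPKM there and at 14.8 to 16.1 FPKM in the other ICI libraries. Leukocyte markers summed to 52.4 to 57.2 FPKM in ICI and 44.4 to 60.5 FPKM in Scop, with Ptprc at 0.0816 ± 0.0526 FPKM in ICI and 0.124 ± 0.0984 FPKM in Scop. Markers of vessels, nerve and glia, lens and pigment cells each stayed under 8 FPKM in sum. In pooled whole corneas, fewer cells of a type and less RNA per cell cannot be told apart.

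All 10 factor genes were well expressed, at mean levels that exceeded those of 71.7% (Tfap2a) to 98.8% (Elf3) of the 12100 genes tested. Elf3, an epithelium-specific ETS factor of terminal differentiation, stood first with 368.5 ± 19.9 FPKM over the 8 libraries (SD). Pax6 followed with 162.3 ± 8.31 FPKM, then Ehf, another epithelium-specific ETS factor, with 127.6 ± 9.16 FPKM and Klf4 with 109.4 ± 9.31 FPKM. In every library Elf3 was above Pax6, Pax6 above Ehf and Ehf above Klf4, so this order was the same in all 8.

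The next genes lay closer together. Trp63 averaged 56.6 ± 3.68 FPKM and Klf5 averaged 53.0 ± 4.50 FPKM, and Trp63 was the higher in 7 of 8 libraries, a difference within their SDs. Klf6 at 40.5 ± 4.07 FPKM was above Grhl3 at 38.2 ± 3.13 FPKM in 7 of 8 libraries, again a difference within their SDs. Grhl3 was above Foxc1, which had 33.8 ± 3.12 FPKM, in 6 of 8 libraries. Their means lay farther apart than either SD, but the ranges of mean ± SD overlapped. Tfap2a was the lowest at 16.5 ± 0.971 FPKM, and Foxc1 was 2.05 times higher in mean, above it in all 8 libraries.

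The order depends on the gene length by which the authors divided. Lengths implied by the recovered fragments were close to the longest GENCODE M21 transcript for Pax6 (4783 and 4427 bases), Klf6 (4236 and 4225), Ehf (4762 and 4469), Elf3 (2009 and 2095) and Grhl3 (2804 and 2789). For Klf4 the implied length was 7588 bases, against 3029 for the transcript. It exceeds the whole span of the gene in RefSeq, chr4:55527137-55532475, so the level of Klf4 relative to other genes is uncertain. With the transcript's length the mean level of Klf4 would be 274 FPKM, above that of Pax6 at 175 FPKM. Tfap2a would then be at 30.7 FPKM and Foxc1 at 23.2 FPKM, which turns their order round. Trp63, with an implied length of 6929 against 5366 bases, would be at 73.0 FPKM, so its closeness to Klf5 also depends on the lengths. The implied length of Klf5, 1736 against 3352 bases, is uncertain because its recovered fragments may all be too low by a shared factor of 2. This second set of levels was added after the data had been seen. Lengths cancel in every comparison between libraries of 1 gene. GENCODE M21 places antisense genes over Pax6, Elf3 and Tfap2a, and since the sources used here do not state whether counting used the strand, their reads cannot be told apart from those of the factors.

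**Figure D1:**
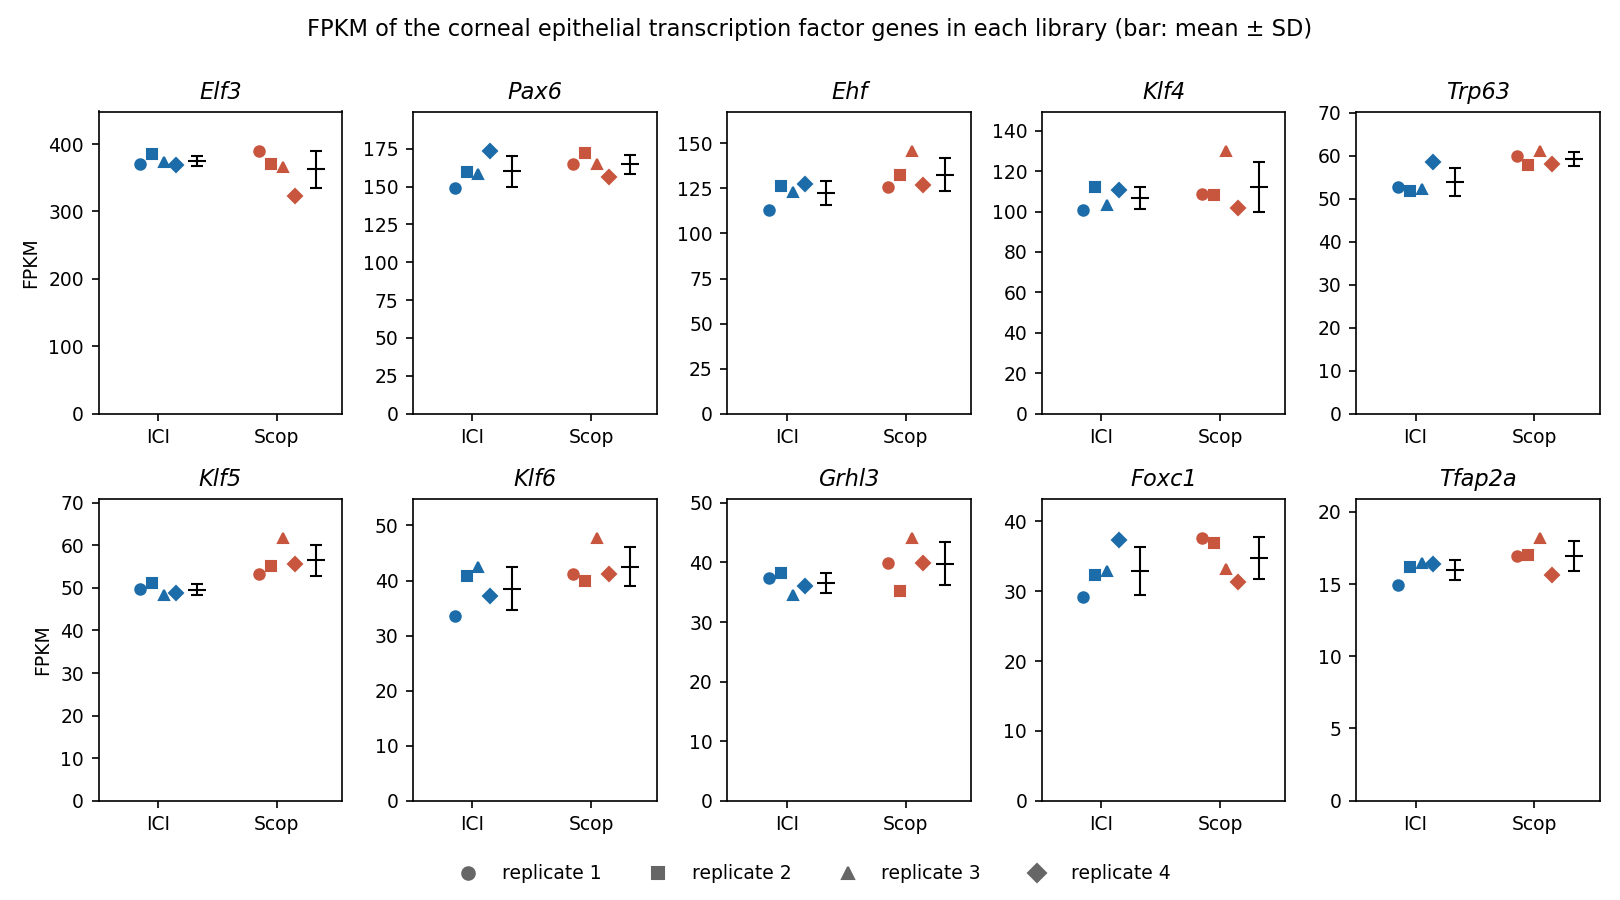
FPKM (y axis, from 0) of each of the 10 transcription factor genes in the 4 ICI libraries (blue, left) and the 4 Scop libraries (red, right). Marker shape gives the replicate number and the black bar the mean ± SD. The groups are apart only for Klf5, with ICI at 48.4 to 51.3 FPKM and Scop at 53.2 to 61.8 FPKM.

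None of the 10 factors passed the test between ICI and Scop after adjustment over all tested genes (limma on log2(FPKM + 1), adjusted p between 0.267 and 0.789). Among all genes, 0% of the 12100 genes passed, with 1455 genes at an unadjusted p under 0.05 and a smallest adjusted p of 0.0788. At an unadjusted p under 0.05 there were 2 of the 10, Klf5 and Trp63, both lower in ICI. In all tested genes 7.46% were lower in ICI and 4.56% higher at that level. Limma-voom on the recovered fragments also gave these 2 and called 0 of the 10 after adjustment.

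The estimated log2 fold change was negative for 9 of the 10, all but Elf3, against 55.4% of all tested genes. The median of the 10 was -0.096, and that of all tested genes was -0.015. Among the 7281 genes averaging 5 FPKM or more, as all 10 factors do, 60.9% were negative and the median was -0.0293. Without Scop replicate 3 the estimate was negative for 8 of the 10, against 60.3% of all genes, with a median of -0.067 for the factors and -0.029 for all genes. The differences are small. The 95% intervals of the 10 factors reach from -20.0% (Klf6) to 13.3% (Elf3), and none of them includes a larger change in either direction. The groups were free of overlap for 1 of the 10, Klf5, which was lower in ICI, where 4.36% of all tested genes were apart in that direction and 2.63% in the other.

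**Figure D2:**
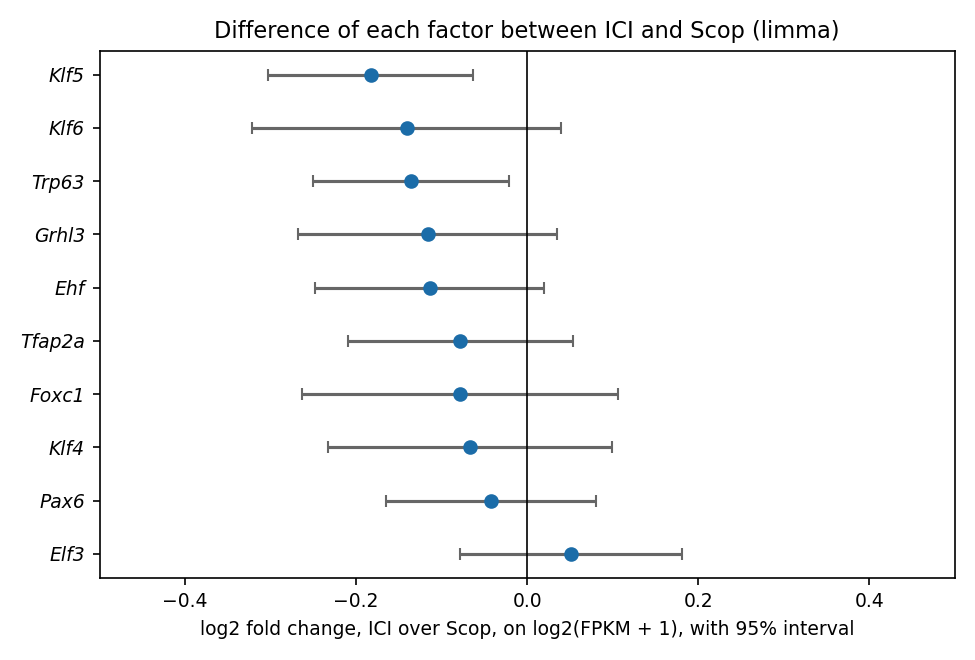
Log2 fold change of each factor, ICI over Scop (x axis, on log2(FPKM + 1)), with limma's 95% interval. Points left of 0 are lower in ICI, and the intervals of Klf5 (-0.30 to -0.064) and Trp63 (-0.25 to -0.022) do not reach 0, before any adjustment for the number of genes tested.

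Pax6 (chr2:105668896-105698410) was measured with 26861 to 32318 fragments per library. It stood at 148.7, 159.8, 158.0 and 173.5 FPKM in ICI replicates 1 to 4, against 164.6, 172.4, 164.9 and 156.4 FPKM in Scop replicates 1 to 4. The highest and the lowest library were both ICI pools, and the groups overlapped fully. Pax6 averaged 160.0 ± 10.2 FPKM in ICI and 164.6 ± 6.52 FPKM in Scop (SD, n = 4 each), a log2 fold change of -0.042 (SE 0.055, adjusted p = 0.789 by limma). As a percentage this is -2.87%, with a 95% interval of -10.8% to 5.77%, and the two-sided exact permutation test gave p = 0.486.

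The Krüppel-like factors Klf4 and Klf5 are each needed for a mature corneal epithelium in mice. Klf4 (chr4:55527137-55532475) had 100.8, 112.2, 103.1 and 110.7 FPKM in ICI, against 108.6, 108.1, 130.0 and 101.9 FPKM in Scop. The value of Scop replicate 3 stood above the other 7, which lay together between 100.8 and 112.2 FPKM. The means were 106.7 ± 5.61 FPKM in ICI and 112.2 ± 12.3 FPKM in Scop, with a log2 fold change of -0.067 (SE 0.075) and an adjusted p of 0.748. Without Scop replicate 3 the estimate changed sign, to 0.0057.

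Klf5 (chr14:99298691-99313412) showed the clearest separation of the 10. It had 49.8, 51.3, 48.4 and 48.8 FPKM in ICI, against 53.2, 55.2, 61.8 and 55.7 FPKM in Scop. All 4 ICI values were below all 4 Scop values as deposited, though the groups overlapped after median-ratio scaling, and the ICI values lay within 3 FPKM of each other. The means were 49.6 ± 1.29 FPKM in ICI and 56.5 ± 3.69 FPKM in Scop, a difference of -11.9% (95% interval -18.9% to -4.32%) and a log2 fold change of -0.18 (SE 0.054). The adjusted p was 0.267 by limma, so Klf5 did not pass. The two-sided exact permutation test gave p = 0.0286, the smallest that 4 against 4 samples allow.

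Klf6 (chr13:5861489-5870393), a broadly expressed member of the same family, had 33.6, 40.8, 42.4 and 37.3 FPKM in ICI, against 41.2, 39.8, 47.7 and 41.3 FPKM in Scop. Replicate 1 was low in ICI and replicate 3 high in Scop, and the groups overlapped between 39.8 and 42.4 FPKM. Klf6 averaged 38.5 ± 3.91 FPKM in ICI and 42.5 ± 3.55 FPKM in Scop (-9.33%, interval -20.0% to 2.80%, adjusted p = 0.525 by limma).

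Of the summed FPKM of the 16 Klf genes in the table, Klf4 made up 33.0 ± 1.46% in ICI and 34.0 ± 1.95% in Scop. Klf5 made up 15.3 ± 0.215% in ICI and 17.2 ± 0.933% in Scop, and Klf6 11.9 ± 1.13% in ICI and 12.9 ± 0.642% in Scop. Klf3, not one of the factors followed here, was above Klf5 and Klf6 as deposited. It averaged 89.3 ± 7.035 FPKM in ICI and 79.7 ± 8.867 FPKM in Scop (log2 fold change 0.165, adjusted p = 0.465 by limma). The ratio of Klf4 to Klf5, chosen after the values were seen, was 2.15 ± 0.104 in ICI and 1.98 ± 0.119 in Scop, and it overlapped between the groups. These shares and ratios were not tested, and they carry the uncertain lengths of Klf4 and Klf5.

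The 2 ETS factors followed here differed in the direction of their estimates. Elf3 (chr1:135253574-135258472) had 371.2, 384.8, 373.4 and 369.0 FPKM in ICI, against 389.9, 370.1, 365.9 and 323.6 FPKM in Scop. The ICI values lay close together, while Scop replicate 4 was the lowest of all 8 and Scop replicate 1 the highest. Elf3 averaged 374.6 ± 7.01 FPKM in ICI and 362.4 ± 27.9 FPKM in Scop, the only positive estimate of the 10 (log2 fold change 0.051, SE 0.058, adjusted p = 0.755 by limma). Without Scop replicate 4 it was -0.0023.

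Ehf (chr2:103263431-103303275), which in mice promotes corneal epithelial differentiation, had 113.2, 126.2, 122.9 and 127.7 FPKM in ICI, against 125.8, 132.2, 145.8 and 127.1 FPKM in Scop. ICI replicate 1 was the lowest and Scop replicate 3 the highest, with the other 6 between 122.9 and 132.2 FPKM. The means were 122.5 ± 6.49 FPKM in ICI and 132.7 ± 9.16 FPKM in Scop (-7.58%, interval -15.8% to 1.41%, adjusted p = 0.490 by limma). Of the summed FPKM of 21 ETS genes on a chosen list, Elf3 held 54.9 ± 0.583% in ICI and 52.2 ± 2.42% in Scop, and Ehf held 18.0 ± 0.739% in ICI and 19.2 ± 1.06% in Scop. Elf3 and Ehf together thus gave most of the mRNA per length of these 21 genes in both groups. The list does not hold every gene of the family.

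Trp63 (chr16:25683763-25892088) encodes p63, which maintains the basal and progenitor cells of stratified epithelia. It had 52.8, 51.8, 52.3 and 58.6 FPKM in ICI, against 60.0, 57.7, 61.1 and 58.1 FPKM in Scop. In 3 ICI pools it was below every Scop pool, and ICI replicate 4 lay inside the Scop range. The means were 53.9 ± 3.15 FPKM in ICI and 59.2 ± 1.60 FPKM in Scop, a difference of -8.98% (95% interval -15.9% to -1.48%) and a log2 fold change of -0.14 (SE 0.051). Trp63 did not pass after adjustment (adjusted p = 0.341 by limma), and the two-sided exact permutation p was 0.0857. Isoforms of p63 with and without the N-terminal transactivation domain cannot be told apart in a value per gene.

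Grhl3 (chr4:135541887-135573632), a grainyhead-like factor of barrier formation and epithelial repair, had 37.3, 38.3, 34.6 and 36.03 FPKM in ICI, against 39.9, 35.2, 44.1 and 39.9 FPKM in Scop. Scop replicate 2 lay inside the ICI range and the other 3 Scop libraries above it. The means were 36.6 ± 1.61 FPKM in ICI and 39.8 ± 3.63 FPKM in Scop (-7.74%, interval -16.9% to 2.47%, adjusted p = 0.529 by limma).

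Tfap2a (chr13:40713802-40738238) encodes AP-2α, a factor of surface ectoderm and of the developing lens and cornea. It had 15.0, 16.2, 16.4 and 16.4 FPKM in ICI, against 16.9, 17.0, 18.2 and 15.6 FPKM in Scop. In 3 Scop libraries it was above every ICI library, and Scop replicate 4 lay inside the ICI range. Tfap2a averaged 15.99 ± 0.687 FPKM in ICI and 16.9 ± 1.05 FPKM in Scop (-5.30%, interval -13.6% to 3.77%, adjusted p = 0.626 by limma).

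Foxc1 (chr13:31806646-31810635), a forkhead factor of the anterior segment, is known from stromal and endothelial cells of the cornea as well as from its epithelium. It had 29.1, 32.3, 32.8 and 37.4 FPKM in ICI, against 37.6, 36.9, 33.2 and 31.4 FPKM in Scop. Each group spread over nearly the whole range, from 29.1 to 37.4 FPKM in ICI and from 31.4 to 37.6 FPKM in Scop. The means were 32.9 ± 3.40 FPKM in ICI and 34.8 ± 2.98 FPKM in Scop (-5.29%, interval -16.6% to 7.61%, adjusted p = 0.732 by limma). In Scop replicate 3, which had the lowest sums of stromal and endothelial markers, Foxc1 stood at 33.2 FPKM, within the range of the other libraries. The part of each cell type in the level of Foxc1 was not tested.

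The factors varied little within a group. Their coefficient of variation had a median of 5.28% in ICI (1.87% for Elf3 to 10.3% for Foxc1) and 7.30% in Scop (2.70% for Trp63 to 10.95% for Klf4). For the 7281 genes averaging 5 FPKM or more the medians were 6.58% in ICI and 7.24% in Scop, so the spread of the factors was close to that of genes in general.

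The extremes of the factors fell into a few libraries. Scop replicate 3 was the highest library for 7 of the 10 factors, Klf4, Klf5, Klf6, Ehf, Trp63, Tfap2a and Grhl3, whereas 15.0% of all tested genes peaked there. Other epithelial genes peaked there too, 16 of 28 tested genes of differentiated corneal epithelium and 7 of 19 of basal and limbal epithelium. So did 10 of 13 on the list of skin-like squamous genes, among them Krt4 and Krt13, which also served as conjunctival markers. Fewer of the other tested regulators peaked there. They were 1 of 11 listed Klf and Sp genes, 5 of 17 listed ETS genes, 1 of 9 relatives of the other factors and 9 of 32 other regulators. Peaking there was thus shared with many of the listed epithelial genes, and less with the other regulators. ICI replicate 1 was the lowest for 6 of the 10, Pax6, Klf4, Klf6, Ehf, Foxc1 and Tfap2a, against 11.0% of all tested genes. Relative to its own mean over the 8 libraries, the median factor stood at 0.17 in Scop replicate 3 and at -0.12 in ICI replicate 1 on the log2 scale.

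Scop replicate 3 also had the lowest keratocyte score, the mean log2(FPKM + 1) of the 9 tested markers of keratocytes and stroma. The score was 6.68, 6.60, 6.44 and 6.29 in ICI, against 6.49, 6.27, 5.27 and 6.41 in Scop. ICI replicate 1 thus held the highest score, just above ICI replicate 2, and Scop replicate 3 stood about 1 unit below all the others. Over the 8 libraries Ehf was related to this score with Pearson's r = -0.894 (exact permutation p = 0.00161, adjusted over the 10 relations computed 0.0161) and Spearman's rho = -0.905 (exact permutation p = 0.00456, adjusted 0.0456). Without ICI replicate 1 and Scop replicate 3, the libraries farthest from the median score, r was -0.619 for Ehf. None of the other 9 factors passed after adjustment. The permutations ran over all 8 libraries without regard to group, so a difference between ICI and Scop can enter r and its p.

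Among these 9, Pearson's r was -0.869 for Klf4, -0.803 for Tfap2a and -0.776 for Klf5 (adjusted exact permutation p 0.0700, 0.0559 and 0.0700). Without the same 2 libraries r became 0.166 for Klf4, -0.251 for Tfap2a and -0.103 for Klf5, so these values rested on them. Elf3 and Foxc1 had r = 0.125 and r = -0.162 (adjusted exact permutation p 0.697 and 0.748), and Pax6 r = -0.388 (0.439). Without those libraries r was 0.312 for Elf3, -0.488 for Foxc1 and -0.687 for Pax6, the last farther from 0 than that of Ehf. Klf6, Trp63 and Grhl3 had r = -0.721, -0.637 and -0.621 (adjusted exact permutation p 0.129, 0.0700 and 0.164). Without those libraries r became 0.567 for Klf6, -0.530 for Trp63 and 0.525 for Grhl3. A pool with a larger share of stroma has a smaller share of epithelium, and the part of this in the values of the factors was not tested. With the score as a covariate in limma the median log2 fold change of the 10 factors was -0.054, against -0.034 for all tested genes. Klf5 and Trp63 then had estimates of -0.13 and -0.11, with adjusted p 0.287 and 0.424. Those of Ehf (-0.043), Klf6 (-0.064), Tfap2a (-0.028), Grhl3 (-0.070) and Pax6 (-0.021) were nearer to 0 by more than 1.5 times, and that of Klf4 was 0.030. Foxc1 and Elf3 had -0.077 and 0.054, close to their values without the covariate.

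**Figure D3:**
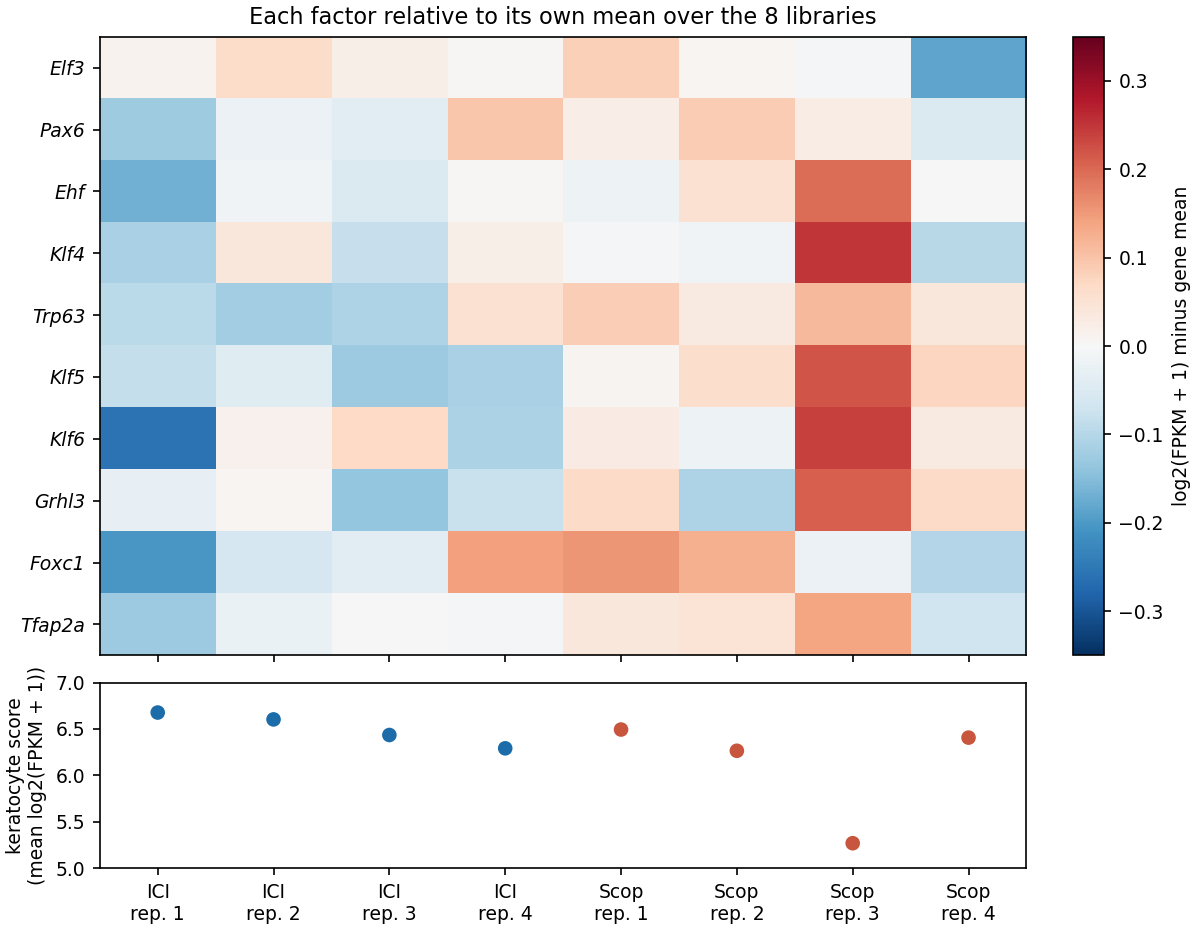
Upper panel, each factor in each library as log2(FPKM + 1) minus the gene's mean over the 8 libraries (colour scale, red above and blue below the mean), with ICI libraries left and Scop libraries right. Lower panel, the keratocyte score of the same libraries, the mean log2(FPKM + 1) of 9 markers. Scop replicate 3 is above the gene's mean for 8 factors and has the lowest score, 5.27, and ICI replicate 1 is blue for most factors and has the highest, 6.68.

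Among the near relatives of the factors, the smallest adjusted p was that of Tfap2c. Tfap2c, which encodes AP-2γ, averaged 18.1 ± 0.250 FPKM in ICI and 15.5 ± 0.524 FPKM in Scop, with all ICI libraries above all Scop libraries (log2 fold change 0.21, SE 0.047, adjusted p = 0.181 by limma, not passing). The ratio of Tfap2a to Tfap2c was 0.837, 0.878, 0.918 and 0.910 in ICI, against 1.11, 1.11, 1.21 and 0.962 in Scop. It was below 1 in all ICI libraries and above 1 in 3 Scop libraries, and the groups did not overlap. This ratio was chosen after the values had been seen and was not tested.

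Of 14 relatives measured, 9 were tested and 0 passed after adjustment (2 lower and 1 higher in ICI at an unadjusted p under 0.05, median log2 fold change -0.021). Grhl2, the partner of Grhl3 in epithelial junctions, averaged 18.1 ± 0.339 FPKM in ICI and 19.7 ± 0.812 FPKM in Scop, without overlap (adjusted p = 0.402 by limma), and the ratio of Grhl3 to Grhl2 was 2.02 ± 0.0960 in ICI and 2.03 ± 0.256 in Scop. Trp53, the p53 gene, averaged 19.4 ± 1.38 FPKM in ICI and 22.4 ± 1.40 FPKM in Scop (adjusted p = 0.308). Ubp1 had a log2 fold change of -0.059 (adjusted p = 0.723).

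Of the listed Klf and Sp genes beside the 3 members, 11 were tested and 0 passed, with 4 negative estimates and a median of 0.026. Klf10, a TGF-β-inducible factor, averaged 8.15 ± 0.647 FPKM in ICI and 6.79 ± 0.410 FPKM in Scop, without overlap (adjusted p = 0.282 by limma). Klf13 and Klf9 had estimates of -0.20 and -0.40 (adjusted p 0.316 and 0.342), and Klf2 of 0.29 (0.458). Klf5 and Klf10 thus had estimates of opposite sign, and the difference between them was not tested.

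Of the listed ETS genes beside Elf3 and Ehf, 17 were tested and 0 passed, with 11 negative estimates and a median of -0.018. Etv6, a transcriptional repressor, averaged 12.4 ± 0.268 FPKM in ICI and 13.96 ± 0.411 FPKM in Scop, without overlap (adjusted p = 0.281 by limma). Ets2 averaged 42.0 ± 3.77 FPKM in ICI and 53.2 ± 10.02 FPKM in Scop and, like Ehf, was highest in Scop replicate 3 (adjusted p = 0.333). Elf2 and Etv5 had estimates of -0.083 and 0.21 (adjusted p 0.561 and 0.501).

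Of 32 other tested regulators of surface epithelium and eye, 0 passed, with 16 estimates below and 16 above 0 and a median of -0.0047. The 4 with the smallest p all had positive estimates larger than that of any of the 10 factors. Hes1, a Notch target, averaged 85.5 ± 16.3 FPKM in ICI and 58.9 ± 6.25 FPKM in Scop (log2 fold change 0.52, adjusted p = 0.197 by limma). Ovol1, a repressor in epithelial differentiation, averaged 23.5 ± 4.04 FPKM in ICI and 15.99 ± 2.61 FPKM in Scop (0.53, adjusted p = 0.211), and Id1 and Junb had 0.47 and 0.48 (adjusted p 0.331 and 0.340).

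**Figure D4:**
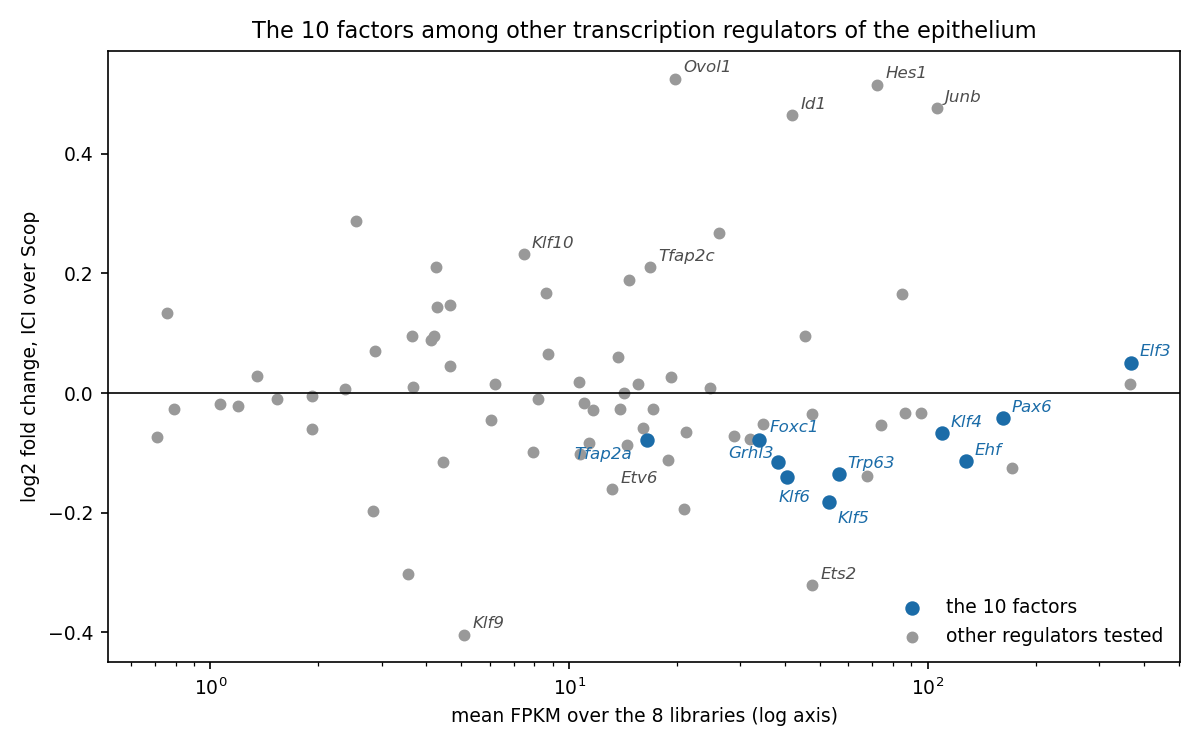
Log2 fold change, ICI over Scop (y axis), against mean FPKM over the 8 libraries (x axis, log axis) for the 10 factors (blue) and the other tested genes of the 4 regulator lists (grey). The factors lie between -0.18 (Klf5) and 0.051 (Elf3), while Ovol1, Hes1, Junb and Id1 lie between 0.47 and 0.53 and Klf9 at -0.40.

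Genes that the factors are known to act on, or that mark the layers in which they act, were read from 3 lists, none with a gene past the adjusted threshold. Of 28 tested genes of differentiated corneal epithelium, 18 had negative estimates (median -0.017, and 0.014 without Scop replicate 3). Aldh3a1, a crystallin of the mouse corneal epithelium whose promoter Pax6 and Klf4 activate, averaged 10220 ± 307 FPKM in ICI and 10070 ± 373 FPKM in Scop. Aqp5, a water channel controlled by Klf4 in mice, averaged 2654 ± 119 FPKM in ICI and 2904 ± 125 FPKM in Scop (adjusted p = 0.393 by limma). Slurp1, whose promoter Klf4 activates in mice, averaged 2913 ± 71.8 FPKM in ICI and 2711 ± 89.5 FPKM in Scop, without overlap (adjusted p = 0.434). Dsc2 and Cldn4, of desmosomes and tight junctions, had estimates of -0.12 and -0.17 (adjusted p 0.417 and 0.402). The estimates of Aqp5 and Slurp1 thus had opposite signs.

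Among 19 tested genes of basal and limbal epithelium, the layer of p63, 14 had negative estimates (median -0.047, and -0.0016 without Scop replicate 3). Krt5, a basal keratin and p63 target, averaged 7202 ± 282 FPKM in ICI and 7531 ± 333 FPKM in Scop, and Krt14, its partner, 265 ± 38.5 FPKM in ICI and 360 ± 156 FPKM in Scop. Cdh3, the P-cadherin gene and another p63 target, averaged 1.71 ± 0.308 FPKM in ICI and 2.44 ± 0.274 FPKM in Scop, without overlap (adjusted p = 0.256 by limma). Krt17, Itga6 and Ngfr had estimates of -0.88, -0.18 and 0.20 (adjusted p 0.293, 0.504 and 0.482).

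Skin-like squamous genes replace corneal genes where Pax6 is lost in mice. The list read for them had 13 tested genes with 9 negative estimates (median -0.24, and -0.099 without Scop replicate 3). It also held Krt4 and Krt13, which served above as conjunctival markers. Krt1 averaged 2.16 ± 0.349 FPKM in ICI and 2.06 ± 0.420 FPKM in Scop (log2 fold change 0.047). Krt10 averaged 0.534 ± 0.0913 FPKM in ICI and 0.596 ± 0.147 FPKM in Scop (-0.055). Ivl, the involucrin gene, averaged 3.58 ± 0.346 FPKM in ICI and 5.03 ± 0.650 FPKM in Scop, without overlap (adjusted p = 0.181 by limma). Krt16, Cnfn and Krt4 had estimates of -1.65, -0.96 and -0.34 (adjusted p 0.395, 0.291 and 0.359), and all 3 were highest in Scop replicate 3, as were 7 of the factors.

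Finally, the genes most like Pax6 and like Klf5 across libraries were sought among 7184 other genes averaging 5 FPKM or more, by Pearson's r of log2(FPKM + 1) over the 8 libraries, as a description. The nearest to Pax6 were Ppip5k1 (r = 0.938), Vapa (0.930) and Usp7 (0.916). The nearest to Klf5 were B4galt3 (0.971), Ceacam1 (0.970) and Adamtsl4 (0.968). Ceacam1, a cell adhesion molecule, averaged 45.3 ± 3.70 FPKM in ICI and 71.0 ± 16.0 FPKM in Scop. All points share the depth and tissue makeup of their library, and the highest of so many values is high by selection.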

How the data were processed

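RNA-seq was made from 8 samples of pooled mouse corneas, 4 in the ICI group and 4 in the Scop group, with group and replicate number taken from the sample titles. The submitters' processing notes name fastp, HISAT2, HTSeq and the build mm10; the sources used here give no versions, order, annotation, gene lengths or strandedness. The values are FPKM in 1 deposited table, summing to 434149 to 448239 per library, with no stated scaling between libraries.

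Whole fragments were recovered from ratios of a gene's FPKM between libraries, read as fractions within a relative tolerance of 5e-13 and taken as whole within 0.01. This succeeded for 99.8% of genes and failed for 57. The totals matched the depths read from the commonest step within 0.0191%. Where all 8 numbers of a gene share a divisor, they come out too low by it. The lowest chi-square per degree of freedom between 2 libraries was 14.9, so none was a duplicate within sampling noise. Intervals cover the spread between these pools, and fragments without molecular identifiers are not independent molecules.

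The 12100 genes averaging 0.5 FPKM or more were compared on log2(FPKM + 1) by limma 3.58.1 (R 4.3.3; eBayes with a mean-variance trend), two-sided, with Benjamini-Hochberg adjustment over all 12100 and a threshold of 0.05. Fold changes are on that scale, which understates changes of low genes. FPKM are not counts, so a count model served only as an alternative (limma-voom on the recovered fragments). Single values were compared with exact permutation tests (scipy 1.17.1).

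The 10 factors and the lists were chosen with earlier results of these data known, and no list was tested as a set. From each list of other genes, the 4 tested genes with the smallest limma p were named, together with Krt12, Krt5, Krt14, Aldh3a1, Kera, Lum and Ptprc. For the marker lists summed levels and this last group are given. Fbln1, Slc4a11, Krt1, Krt10, Krt13 and Klf3 were named outside this rule, after the values had been seen. So were the genes in the closing section that passed with a library left out. Other settings tried were pseudocounts of 0.1 and 5, no filter or one of 5 FPKM, median-ratio, common-sum and quantile scaling, 2 other variance models, the replicate number as a block, the keratocyte score as a covariate, limma-voom, and leaving out each library.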

Additional observations from a re-analysis of the deposited data

Results flagged for a closer look

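In the ICI group Trp63 had 1 library far from the other 3. ICI replicate 4 had 58.57 FPKM, against 51.8 to 52.8 FPKM in the other ICI libraries and 57.7 to 61.1 FPKM in the Scop libraries, and its gap to the next value made up 0.858 of the group's range, above the critical value for 4 samples. ICI replicate 4 was also the highest library for Pax6. In all, 20 groups of 4 libraries (10 factors in ICI and in Scop) were examined and 1 was picked out, and chance picks out about 1 in 20. Without ICI replicate 4 the groups did not overlap for Trp63, and its adjusted p stayed above the threshold.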

How the results depend on the processing

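None of the 10 factors passed the adjusted threshold under any of the 20 alternatives. Klf5 (log2 fold change -0.21 to -0.13, adjusted p 0.226 to 0.450) and Trp63 (-0.18 to -0.11, 0.277 to 0.599) were lower in ICI in all of them. Klf4, with a main estimate of -0.067, changed sign with the keratocyte score as covariate (0.030) and without Scop replicate 3 (0.0057), and Elf3, at 0.051, ranged from -0.0023 (without Scop replicate 4, a change of sign) to 0.087 (without Scop replicate 1). The other 6 factors kept their sign, but with the keratocyte score as covariate the estimates of Ehf, Klf6, Tfap2a, Grhl3 and Pax6 came nearer to 0 by more than 1.5 times, and the median of the 10 was -0.054, against -0.096 without it. The cause of these changes was not tested.

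The number of factors at an unadjusted p under 0.05 (2) was 1 with median-ratio scaling and with the keratocyte score, and 1 to 3 with 1 library left out. Klf5 was among them each time, Trp63 was not without ICI replicates 1, 2 or 3 or Scop replicates 1 or 3, and Grhl3 joined without Scop replicate 2. The number without overlap (1, Klf5) was 0 with median-ratio scaling, 2 with scaling to a common sum (Ehf joined), and 1 to 2 with 1 library left out (Trp63 joined without ICI replicate 4, Grhl3 without Scop replicate 2, Tfap2a without Scop replicate 4). The number of factors related to the keratocyte score (1, Ehf) was 3 with median-ratio scaling, where r was -0.819 for Trp63, -0.939 for Tfap2a and -0.181 for Elf3, and 2 with quantile normalisation, where r was -0.858 for Tfap2a.

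Over all genes 0 passed, 1 (Cxcl2) with the keratocyte score as covariate, and 0 to 6 with 1 library left out: Cebpd without Scop replicate 1, Cxcl2 without Scop replicate 3, and AY036118, Cxcl1, Gm26917, Lars2, Malat1 and S100a9 without Scop replicate 4. With the replicate number as a block 0 genes and 0 factors passed, 1512 genes and 2 factors had an unadjusted p under 0.05, and the smallest adjusted p was 0.0531. Same-numbered libraries deviated together with correlations of 0.287, -0.0093, 0.138 and 0.077, and libraries 2 and 4 did not correlate best with their own number. The numbers were not taken as pairs because no label pairs them, and these correlations cannot decide whether they do.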
